A study of Sus scrofa with 2 samples.

Results

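A set of 9 genes of the unfolded protein response and of the translocon of the endoplasmic reticulum (ER) was followed in single nuclei of the pig pancreas. They are XBP1, ATF6, ATF5, ICAM2 (a row that is ERN1, as described below), TMBIM6, SEC61A1, SEC62, SSR2 and SSR4, they were found by symbol, and they make up 9 of the 31908 genes counted. Pancreas was taken from 1 wild-type (WT) Bama pig and 1 PIGinH11 pig, which carries GIPRdn, hIAPP and the PNPLA3 I148M variant at the H11 locus, driven by promoters for beta cells or liver. Both pigs were 18 months old and shared the same feeding, a control diet until the age of 6 months and then a high-fat, high-sucrose diet (HFHSD, with 37% sucrose, 53% control diet and 10% lard) for 12 months. Each group was 1 library from 1 piece of the pancreas body, so genotype, animal and library cannot be told apart and no test between the groups was possible.

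Proteins for secretion enter the ER through the SEC61 channel and fold in the ER lumen. When unfolded proteins build up, the sensors IRE1 (encoded by ERN1), ATF6 and PERK (encoded by EIF2AK3) start the unfolded protein response, in which IRE1 splices XBP1 mRNA, ATF6 is cleaved into a transcription factor and PERK slows translation. Acinar cells, which make the digestive enzymes, and beta cells, which make insulin, both carry a heavy load of secreted protein and depend on this response.

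In single-nucleus RNA sequencing, the RNA of each nucleus is tagged with a barcode, and each captured molecule with a unique molecular identifier (UMI). The WT library held 13619 barcodes with a median of 3216 UMIs and the PIGinH11 library 14964 with a median of 1181.5, and 60 barcode sequences occurred in both (0.441% of those of the WT library). After filters, 11854 WT and 13126 PIGinH11 nuclei were clustered and named by marker genes, as "-like" classes. INS, GCG, SST and PPY were each highest in their own endocrine class in both libraries. Not all of the study's other markers did so. In macrophage-like nuclei PNLIP (acinar) was highest in WT and CD36 (endothelial) in PIGinH11. In both libraries PDGFRB (stellate) was highest in mural-like and PTPRC (macrophage) in lymphocyte-like nuclei, and GHRL (epsilon) had no class of its own. A level below is the UMIs of a gene summed over the nuclei of a class, per 1000000 UMIs of that class (CPM), a log2 ratio is PIGinH11 over WT, and brackets hold exact 95% intervals, which cover counting error only and not differences between animals. A ratio was counted as past 2-fold when the gene had at least 40 UMIs over both libraries. Fewer transcripts of a gene in each nucleus and fewer nuclei using it cannot be told apart in such sums, so shares of nuclei are given for the main results.

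The row that the files call ICAM2 carries the identifier ENSSSCG00000039909, which the gene table names ERN1. In the RefSeq annotation of Sscrofa11.1, ERN1 lies at chr12:14881913-14963290, and ICAM2, an adhesion molecule of endothelial cells with the identifier ENSSSCG00000062259, lies 23345 bp away at chr12:14986636-14991639. No row carried the second identifier, so ICAM2 itself was not analysed here. The level of the row was 60.7 CPM in WT and 66.9 CPM in PIGinH11 endothelial-like nuclei, the lowest of the 11 classes compared in PIGinH11 and above delta-like nuclei alone (4 UMIs) in WT. It was highest in acinar-like nuclei, where it was 334 CPM in WT and 275 CPM in PIGinH11. The row is therefore called ICAM2 (ERN1).

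The other members lie apart in the genome. XBP1 lies at chr14:46011239-46016526, ATF6 at chr4:88591279-88806156 and ATF5 at chr6:54945067-54950142. TMBIM6 lies at chr5:15674028-15692944. SEC61A1 lies at chr13:72254462-72276484 and SEC62 on the same chromosome at chr13:108660486-108688307. SSR2 lies at chr4:94010724-94021964 and SSR4 at chrX:124537545-124541635. These spans include introns. Divided by span, the level in WT acinar-like nuclei was highest for XBP1 (46.6 CPM per kb) and ATF5 (38.8), followed by SSR4 (11.7) and SSR2 (9.53). These are the shortest genes of the set, and UMI counts need not scale with span, so this is no order of abundance. Undivided, ATF6 was highest, at 912 CPM. The other 5 genes lay between 4.03 CPM per kb for SEC61A1 and 5.70 CPM per kb for TMBIM6.

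All 9 genes were lower in PIGinH11 than in WT acinar-like nuclei (8436 WT and 9040 PIGinH11 nuclei), with intervals below 0. Of all 16696 genes tested, 5803 had a log2 ratio below 0, and intervals below 0 were not counted over all genes. The ratios of 3 of the 9, ATF5, SSR4 and XBP1, were past 2-fold lower, against 2.95% of the 16696 genes tested, and 0 of 9 were past 2-fold higher, against 17.7%. The median log2 ratio of the 9 genes was -0.56, while that of all genes tested was 0.22. The 9 genes were chosen with earlier results of these data known, so their distance from all genes is no independent result. The log2 ratios also depend on the scaling. When the libraries were scaled by the median ratio of genes, each acinar log2 ratio was lower by about 0.22. The shift was 0.15 in ductal-like and 0.11 in stellate-like nuclei. Such scaling moves all genes of a class alike and leaves the gap between the 2 medians unchanged.

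ATF5, a transcription factor translated under stress of the ER and the mitochondria, differed most. Its level was 197 CPM in WT (5940 UMIs) and 19.2 CPM in PIGinH11 acinar-like nuclei (298 UMIs), 10.2-fold lower in PIGinH11, with a log2 ratio of -3.36 [-3.53, -3.19]. At least 1 UMI of ATF5 was found in 35.0% of WT and 2.61% of PIGinH11 nuclei. Since the WT acinar-like nuclei were deeper (a median of 2846.5 UMIs against 1204), each nucleus was also thinned to 500 UMIs, and the shares were then 7.89% [7.33, 8.49] and 0.996% [0.801, 1.22]. The difference in ATF5 was thus present both in the level and in the share of nuclei at equal depth.

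XBP1, the transcription factor whose mRNA IRE1 splices, was at 246 CPM in WT and 116 CPM in PIGinH11 acinar-like nuclei, a log2 ratio of -1.09 [-1.16, -1.01]. Its share of nuclei with a UMI was 46.4% in WT and 15.0% in PIGinH11, and 10.8% and 4.73% after thinning. The counts do not separate spliced from unspliced XBP1. The sensors themselves were closer together. ATF6 was at 912 CPM in WT and 709 CPM in PIGinH11, a log2 ratio of -0.36 [-0.40, -0.33]. ICAM2 (ERN1) had a log2 ratio of -0.28 [-0.34, -0.23]. The third sensor gene, EIF2AK3, is no member of the set and had a log2 ratio of -0.22 [-0.26, -0.18].

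TMBIM6, an ER membrane protein known to restrain cell death and IRE1, was at 108 CPM in WT and 82.0 CPM in PIGinH11 acinar-like nuclei, a log2 ratio of -0.39 [-0.49, -0.30].

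Among the translocon genes, SSR4, a subunit of the translocon-associated protein complex that sits beside the channel, differed most. It was at 47.9 CPM in WT (1446 UMIs) and 15.5 CPM in PIGinH11 (240 UMIs), 3.09-fold lower in PIGinH11, with a log2 ratio of -1.63 [-1.83, -1.43]. After thinning, 3.06% of WT and 0.642% of PIGinH11 acinar-like nuclei had a UMI of SSR4. SSR2, another subunit of this complex, had a smaller difference, from 107 CPM in WT to 67.6 CPM in PIGinH11, a log2 ratio of -0.66 [-0.77, -0.56]. The other subunits of the complex, SSR1 and SSR3, had log2 ratios of -0.47 and -0.63, so all 4 subunits were lower and SSR4 alone was past 2-fold.

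SEC61A1, which forms the pore of the channel, was at 88.8 CPM in WT and 60.2 CPM in PIGinH11 acinar-like nuclei, a log2 ratio of -0.56 [-0.67, -0.45]. The log2 ratios of the small channel subunits SEC61B and SEC61G were -0.67 and -0.36. SEC62, which helps short proteins enter the ER after translation, was at 134 CPM in WT and 118 CPM in PIGinH11, and its log2 ratio of -0.18 [-0.26, -0.10] was the closest to 0 of the 9. Its partner SEC63 had the same log2 ratio, -0.18.

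**Figure D1:**
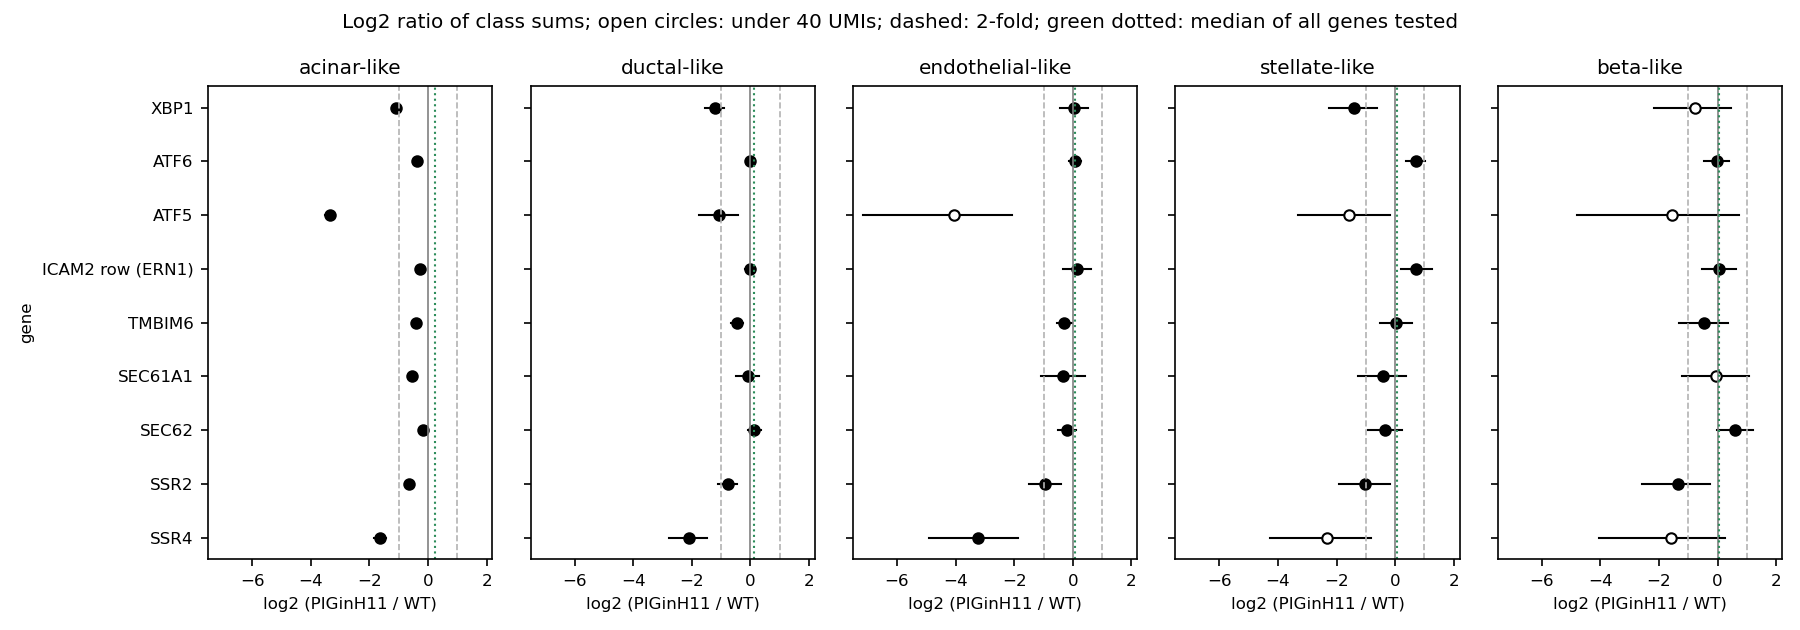
Log2 ratio of PIGinH11 over WT (x axis) for the 9 genes (y axis) in 5 classes of nuclei, with exact 95% intervals as bars, open circles for genes under 40 UMIs, dashed lines at 2-fold and a green dotted line at the median of all genes tested. All 9 acinar points lie left of 0, from -3.36 for ATF5 to -0.18 for SEC62, while ATF6 and ICAM2 (ERN1) lie right of 0 in stellate-like nuclei at 0.69 and 0.72.

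Other RNA differed between the acinar-like sums as well. The 18 heat-shock and immediate-early genes counted summed to 2189 CPM in WT and 603 CPM in PIGinH11, with 11 of the 16 tested past 2-fold lower. The median log2 ratio was -0.72 over 59 ribosomal protein genes and -1.31 over 12 mitochondrial genes, and the digestive enzymes summed to 86566 and 60609 CPM. Their part in the differences of the 9 genes was not tested.

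Acinar-like nuclei fell into 6 clusters, and 5 of the 9 genes were lower in each of them with intervals below 0. ATF5 was lower in PIGinH11 in 6 of 6 clusters, with log2 ratios of -4.33 to -2.58, at 133 to 316 CPM in WT and 15.7 to 22.2 CPM in PIGinH11. The clusters share their library and are not replicates, and such ranges were not compared over all genes. XBP1 was lower in 6 of 6, with log2 ratios of -1.28 to -0.80, and SSR4 in 6 of 6, with -2.49 to -1.09. SSR2 and SEC61A1 were the other genes of these 5. ATF6, TMBIM6 and SEC62 were below 0 in 6 of 6, with the interval below 0 in 5, 5 and 2 of them, whereas ICAM2 (ERN1) was below 0 in 4.

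The highest ATF5 level was in WT nuclei of cluster 3. In WT this cluster was also the highest in HSP70.2, a heat-shock gene of the HSP70 family. In PIGinH11 it was the lowest of the 6 clusters in ATF5, and HSP70.2 was higher in another cluster, at 17.4 CPM. In cluster 3, ATF5 was at 316 CPM in WT and 15.7 CPM in PIGinH11, and HSP70.2 at 1269 and 14.9 CPM. CHAC1, which degrades glutathione and is a known target of the ATF4 branch of the response, was at 23.3 and 0.851 CPM. TRIB3, another target of that branch, had 82 UMIs in WT and 0 in PIGinH11 nuclei of this cluster. Without cluster 3, an alternative added after the data were seen, the acinar-like level of ATF5 was 148 CPM in WT and 19.8 CPM in PIGinH11, a log2 ratio of -2.90 [-3.09, -2.72]. XBP1 (-1.10) and SSR4 (-1.80) also stayed past 2-fold lower. HSP70.2 was still at 667 CPM in WT and 10.2 CPM in PIGinH11 without cluster 3. Leaving this cluster out therefore did not remove the heat-shock difference between the libraries, and its part in the ratios was not tested.

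Cluster 8 showed another pattern. Its nuclei had the highest digestive enzyme level of the 6 clusters (302706 CPM in WT and 122352 CPM in PIGinH11). Of the translocon genes, 3 were highest there in both libraries, SSR4 at 169 and 74.8 CPM, SSR2 at 267 and 174 CPM, and SEC61A1 at 152 and 113 CPM, while SEC62 was not, at 137 and 120.0 CPM. TMBIM6 followed them, at 240 and 137 CPM. ATF6 and ICAM2 (ERN1) were lowest in WT nuclei of this cluster, at 623 and 211 CPM. Enzymes took the largest part of the WT sum here, which lowers the CPM of all other genes, and their part in these low levels was not tested.

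**Figure D2:**
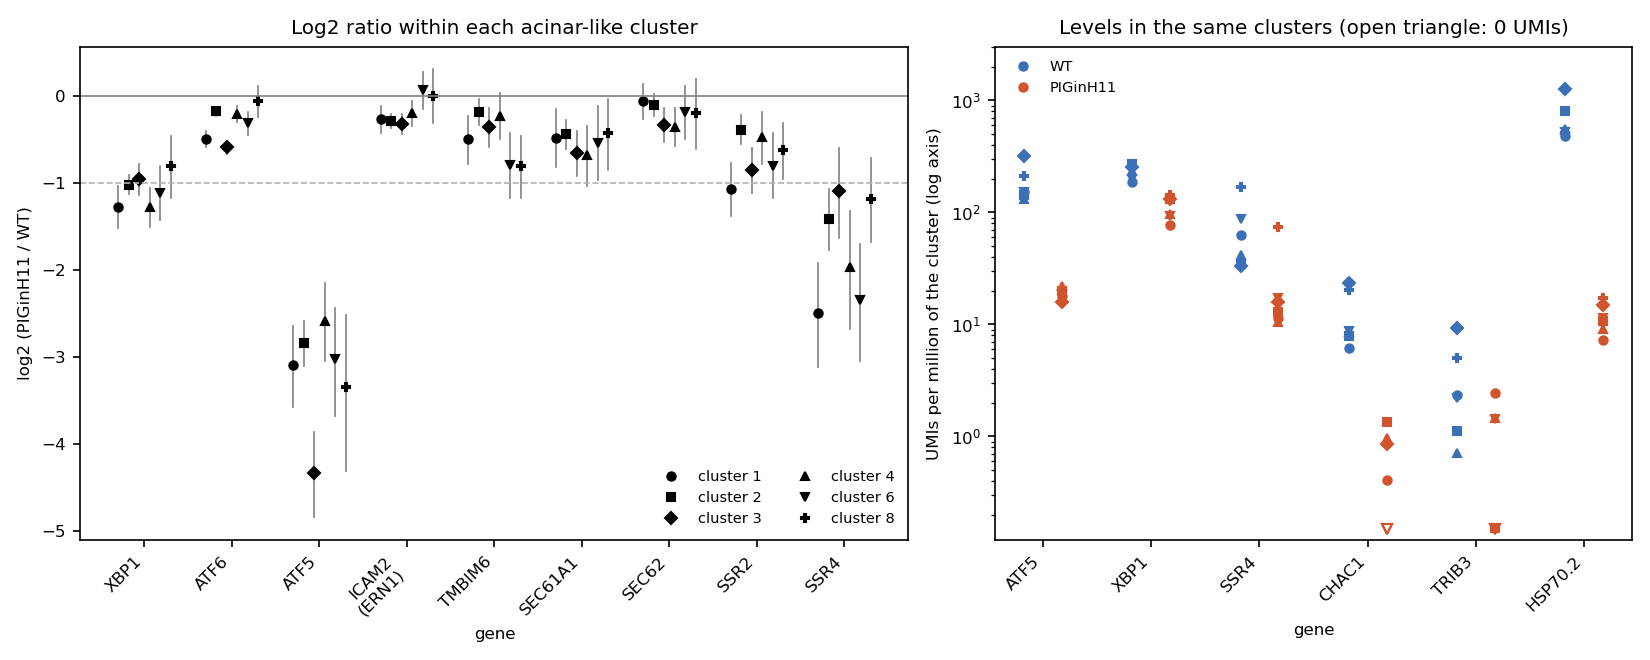
Left, log2 ratio (y axis) of each gene (x axis) within the 6 acinar-like clusters. Right, levels on a log axis of genes of the set beside HSP70.2, CHAC1 and TRIB3 in the same clusters, with WT and PIGinH11 in separate colours and open triangles for 0 UMIs. ATF5 points lie at 133 to 316 CPM in WT and at 15.7 to 22.2 CPM in PIGinH11.

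In ductal-like nuclei (2149 WT and 2193 PIGinH11), the same 3 genes were past 2-fold lower, against 3.15% of the 12648 genes tested, and 0 of 9 were past 2-fold higher, against 12.2%. SSR4 was at 29.7 CPM in WT and 6.91 CPM in PIGinH11, a log2 ratio of -2.10 [-2.78, -1.48]. XBP1 was at 71.3 and 30.7 CPM, a log2 ratio of -1.22 [-1.53, -0.91]. ATF5 was at 15.1 and 7.21 CPM, a log2 ratio of -1.07 [-1.76, -0.43]. With free RNA subtracted (described below), 4 of the 9 genes could be tested, and SSR4 alone was past 2-fold lower, at -1.34. XBP1, ATF6, ATF5, ICAM2 (ERN1) and SEC61A1 were then at 0 in WT but above 0 in PIGinH11, so they had no ratio. The subtraction took 39.0% of the acinar-like level in WT and set values below 0 to 0. XBP1 and ATF5 in WT were at 28.9% and 7.68% of that level. This alternative could therefore give no ratio for them and decides nothing about their lower values in PIGinH11.

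SSR2 and TMBIM6 were also lower in ductal-like nuclei, with log2 ratios of -0.78 [-1.11, -0.46] and -0.46 [-0.66, -0.26]. With free RNA subtracted SSR2 turned to 1.18, and TMBIM6 was at -0.04. The sensors and the channel showed intervals that held 0. ATF6 was at 230 CPM in WT and 226 CPM in PIGinH11, a log2 ratio of -0.03 [-0.15, 0.10]. ICAM2 (ERN1) had a log2 ratio of -0.01 [-0.18, 0.15] and SEC61A1 of -0.09 [-0.50, 0.30]. SEC62 had the only value above 0, 0.13 [-0.09, 0.36], and it was -0.02 with median-of-ratios scaling and 2.05 with free RNA subtracted.

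Beta-like nuclei were few (129 WT and 135 PIGinH11), and 5 of the 9 genes had 40 UMIs or more. SSR2 was the 1 gene of these past 2-fold lower, against 4.07% of the 4495 genes tested, and 0 of 5 were past 2-fold higher, against 4.43%. SSR2 was at 57.0 CPM in WT (35 UMIs) and 22.5 CPM in PIGinH11 (9 UMIs), a log2 ratio of -1.34 [-2.58, -0.25]. It was not past 2-fold under several alternatives, given in the closing section.

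The other 4 genes tested in beta-like nuclei had intervals that held 0. ATF6 was at 189 and 185 CPM, a log2 ratio of -0.03 [-0.47, 0.41]. ICAM2 (ERN1) was at 111 and 115 CPM, a log2 ratio of 0.06 [-0.52, 0.62]. With free RNA subtracted ICAM2 (ERN1) was at 3.56, and ATF6 in WT was at 0. This subtraction took 30.8% of the acinar-like level in WT and 7.91% in PIGinH11. These ratios thus depend on the share subtracted, and the part of free RNA in them was not tested. SEC62 was at 0.59 [-0.03, 1.21] and TMBIM6 at -0.45 [-1.32, 0.37], and with free RNA subtracted they were at 1.58 and 0.36. XBP1 had 21 UMIs in WT and 8 in PIGinH11, ATF5 9 and 2, SEC61A1 19 and 12, and SSR4 14 and 3, so no call was made for these genes at this depth.

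In endothelial-like nuclei (279 WT and 553 PIGinH11), 8 of the 9 genes were tested. SSR4 was the 1 gene past 2-fold lower, against 3.24% of all genes tested, and 0 of 8 were past 2-fold higher, against 5.78%. SSR4 had 41 UMIs in WT and 5 in PIGinH11, a log2 ratio of -3.22 [-4.92, -1.88]. SSR2 and TMBIM6 also had intervals below 0, at -0.95 [-1.49, -0.42] and -0.29 [-0.56, -0.03]. XBP1 was at 62.5 CPM in WT and 64.5 CPM in PIGinH11, a log2 ratio of 0.05 [-0.44, 0.53]. ATF5, which was not tested, had 29 UMIs in WT and 2 in PIGinH11.

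In stellate-like nuclei (195 WT and 251 PIGinH11), 2 of the 9 genes were past 2-fold lower and the 2 sensors had intervals above 0. XBP1 and SSR2 were past 2-fold lower, 2 of the 7 genes tested against 4.3% of all genes tested. Their log2 ratios were -1.41 [-2.26, -0.63] and -1.02 [-1.93, -0.19]. As in endothelial-like nuclei, the counts past 2-fold were not repeated under the alternatives of the closing section. Subtracting free RNA left XBP1, ATF6 and ICAM2 (ERN1) at 0 in WT but above 0 in PIGinH11, so they had no ratio. SSR2 was at 66.0% of its acinar-like level in WT, where the digestive enzymes were at 47.4%. In PIGinH11 these shares were 51.4% and 20.1%. The part of free RNA in the ratio of SSR2 was not tested. ATF6 was at 219 CPM in WT and 354 CPM in PIGinH11, a log2 ratio of 0.69 [0.37, 1.02]. ICAM2 (ERN1) was at 81.5 CPM in WT and 135 CPM in PIGinH11, a log2 ratio of 0.72 [0.19, 1.26]. Both kept their sign with median-of-ratios scaling, at 0.58 and 0.61, and 0 of 7 genes were past 2-fold higher, against 4.23%.

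The smaller classes held few UMIs of the 9 genes. In macrophage-like nuclei ATF5 had 17 UMIs in WT and 0 in PIGinH11, where 3 UMIs would be 25.7 CPM. SSR4 had 7 UMIs in WT and 0 in PIGinH11 lymphocyte-like nuclei, where 3 UMIs would be 33.8 CPM. ICAM2 (ERN1) did not go 1 way over these classes. It had 4 UMIs in WT and 26 in PIGinH11 delta-like nuclei and 11 and 26 in Schwann-like nuclei. Its log2 ratios there were 1.85 [0.32, 3.83] and 1.09 [0.03, 2.26], on under 40 UMIs in each class. In lymphocyte-like (11 and 7 UMIs) and mural-like nuclei (15 and 10 UMIs) its log2 ratios were -0.70 and -0.68, with intervals that held 0. ATF6, which had the most UMIs of the 9 genes, could be compared in 6 of these classes, and its interval held 0 in each of them, the alpha-like, delta-like, lymphocyte-like, macrophage-like, mural-like and Schwann-like nuclei.

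Levels over the classes were set side by side for the 11 classes with at least 20 nuclei in each library. XBP1, ATF6, ATF5, ICAM2 (ERN1) and SEC61A1 were highest in acinar-like nuclei in both libraries. XBP1 in WT acinar-like nuclei (246 CPM) exceeded the next class, stellate-like nuclei (97.8 CPM), beyond the counting interval, and in PIGinH11 it exceeded endothelial-like nuclei (116 against 64.5 CPM). ATF6 stood apart from the next class, lymphocyte-like nuclei, in WT (912 against 431 CPM) and in PIGinH11 (709 against 383 CPM). ATF5 in WT acinar-like nuclei was followed by macrophage-like nuclei at 125 CPM, and the interval of their ratio held 0. It also held 0 in PIGinH11, where Schwann-like nuclei came next (19.2 against 17.8 CPM).

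ICAM2 (ERN1) was followed by macrophage-like nuclei, at 169 CPM in WT, outside the interval, and at 214 CPM in PIGinH11, within it. SEC61A1 did not differ from the next class beyond its interval in either library. TMBIM6 and SEC62 were highest in endothelial-like nuclei in both libraries. TMBIM6 was at 227 CPM there in WT and 186 CPM in PIGinH11, and SEC62 at 163 and 143 CPM. Both stood apart from the next class in WT. In PIGinH11 macrophage-like nuclei came next, at 137 CPM for each gene, and the interval of the ratio held 0. SSR2 was highest in macrophage-like nuclei, at 118 and 112 CPM, without a difference beyond the interval from acinar-like nuclei. SSR4 was highest in delta-like nuclei in WT (7 UMIs) and in Schwann-like nuclei in PIGinH11 (4 UMIs), too few to order.

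**Figure D3:**
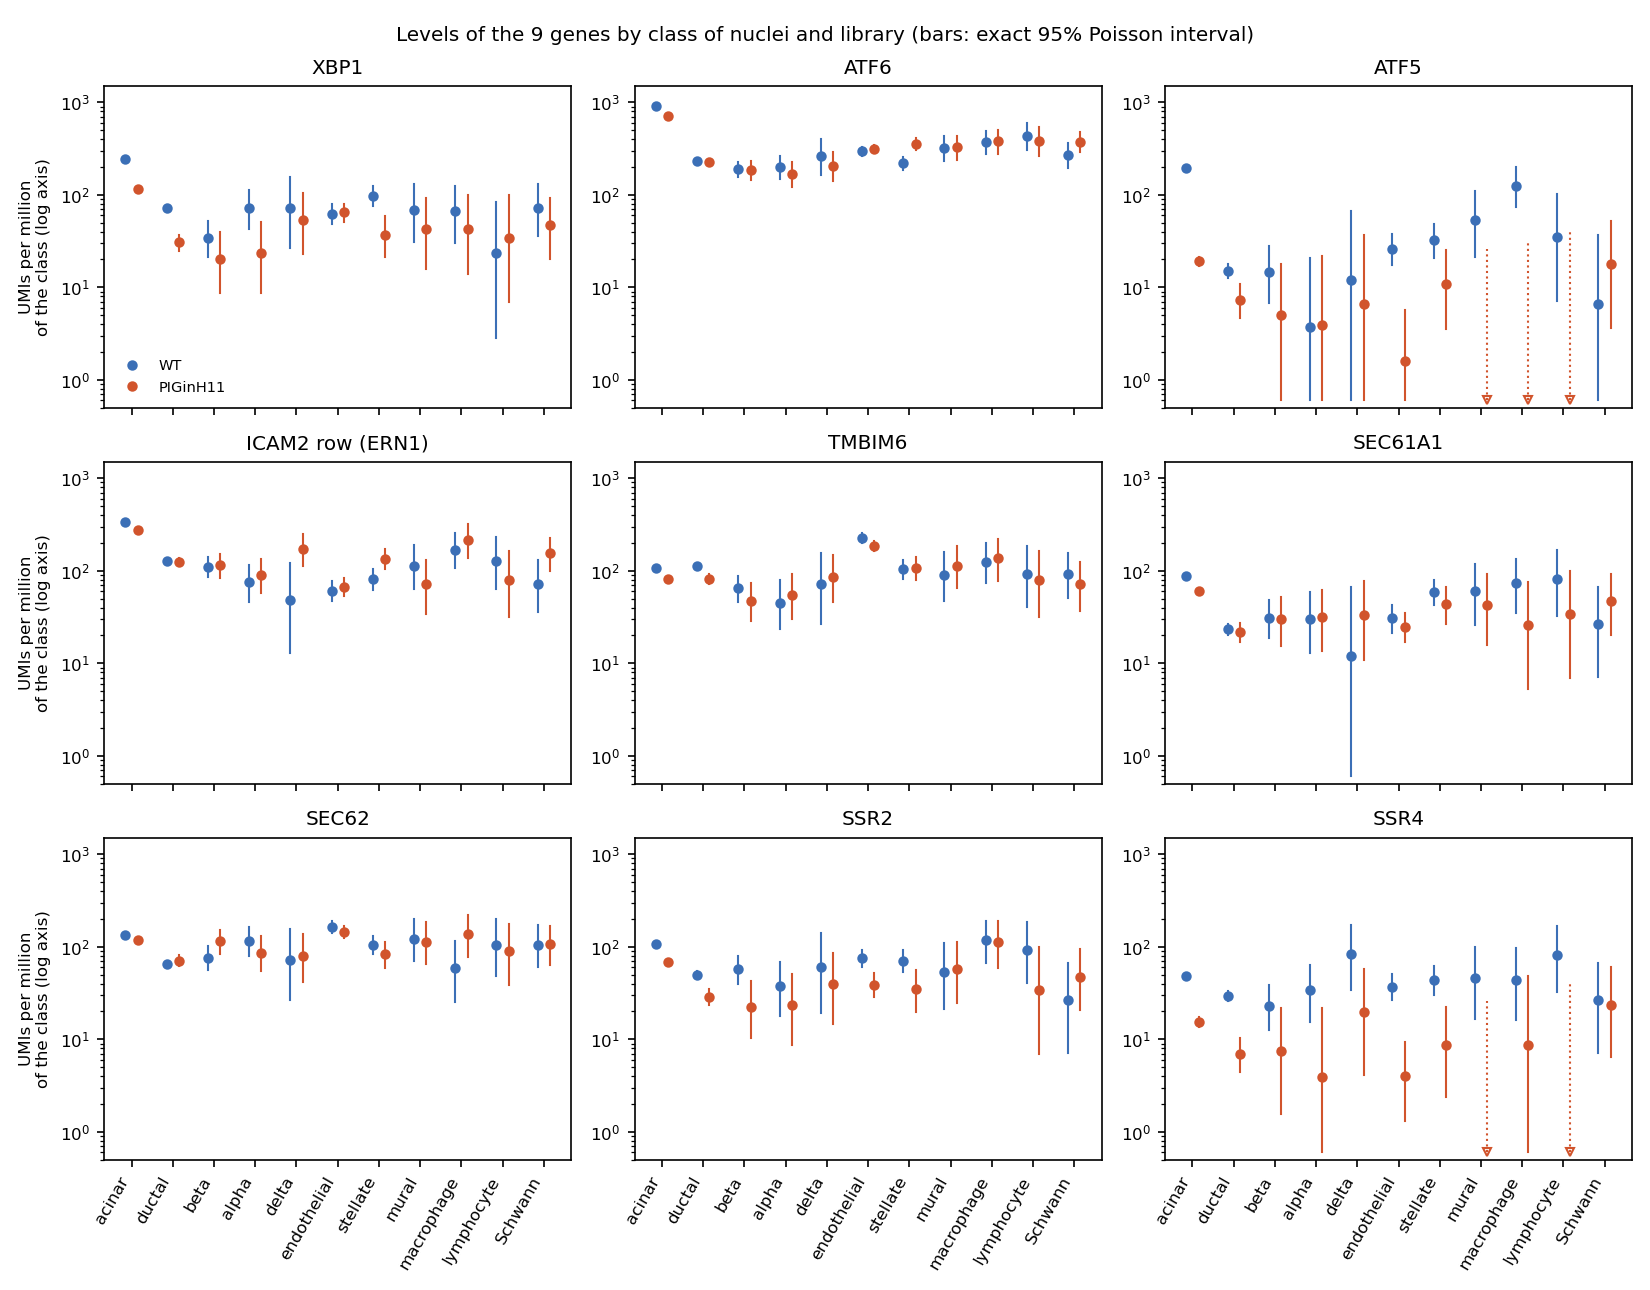
Level of each of the 9 genes (CPM of the class, log axis) in each class of nuclei (x axis), for both libraries in separate colours, with exact 95% Poisson intervals as bars. ATF6 is highest in acinar-like nuclei (912 CPM in WT, 709 CPM in PIGinH11), and TMBIM6 in endothelial-like nuclei (227 and 186 CPM). In PIGinH11, TMBIM6 did not differ beyond the interval from the next class, macrophage-like nuclei.

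RNA free in the suspension can add acinar transcripts to other nuclei. The digestive enzymes were taken as made by acinar cells alone. This was assumed and not tested, and the study saw zymogen granules in alpha and beta cells of PIGinH11 pigs. In WT the enzymes were at 39.0% of their acinar-like level in ductal-like and 30.8% in beta-like nuclei. They were at 42.4% in endothelial-like and 47.4% in stellate-like nuclei. In PIGinH11 these shares were 16.6%, 7.91%, 18.4% and 20.1%. XBP1, ATF6 and ATF5 lay below this share of their acinar-like level in all 4 of these WT classes. ATF5, for example, was at 7.68% of its acinar-like level in WT ductal-like and 7.45% in WT beta-like nuclei. ICAM2 (ERN1) lay below it in WT ductal-like (37.9%), endothelial-like (18.2%) and stellate-like nuclei (24.4%), and SEC61A1 in WT ductal-like (26.3%) and endothelial-like nuclei (34.7%). In PIGinH11, ATF5 in endothelial-like nuclei was the 1 case below in these 4 classes. Since a level includes any free RNA, the enzyme share is too high a measure of free RNA for the genes below it. The WT levels of these 5 genes in the classes named are therefore read neither as expression by these classes nor as free RNA. The part of free RNA in the ratios was not tested beyond the alternative in the closing section, which subtracts the same share.

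A cluster of 352 WT and 132 PIGinH11 nuclei that no marker set named was led by digestive enzymes (606625 and 194738 CPM). In it, SSR2 was at 457 CPM in WT and 162 CPM in PIGinH11, and SSR4 at 300.4 and 111 CPM. ATF5 had 211 UMIs in WT and 3 in PIGinH11, a log2 ratio of -2.66 [-4.95, -1.09]. ATF6 was at 75.1 CPM in WT and 436 CPM in PIGinH11, a log2 ratio of 2.54 [2.02, 3.04]. Enzymes took far more of the WT sum in this cluster. Relative to the median ratio of the genes that both libraries held at 20 UMIs or more, ATF6 was at -0.30, SSR2 at -4.32, SSR4 at -4.27 and ATF5 at -5.49. ICAM2 (ERN1) had 23 UMIs in WT and 16 in PIGinH11, too few to be counted.

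The other genes of the same system were taken from 6 lists, of which 145 of 159 genes were found, counted without the 9 members. In acinar-like nuclei 5 of 143 tested were past 2-fold lower, against 2.95% of all genes, and 3 past 2-fold higher, against 17.7%. The log2 ratio was below 0 for 100 of the 143, against 5803 of the 16696 genes tested, with a median of -0.22. With median-of-ratios scaling, 10 were past 2-fold lower and 2 higher. This scaling lowers the ratios of all genes alike, and the shares over all genes were not computed with it.

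The 5 lower genes were TRIB3, CEBPB, ATF3, EDEM1 and KDELR3. Every listed gene was chosen as part of this system, so their roles are no result of the comparison. TRIB3, a pseudokinase induced by ATF4, had a log2 ratio of -2.31 [-3.31, -1.45]. The transcription factors CEBPB and ATF3 had log2 ratios of -1.39 [-1.75, -1.05] and -1.37 [-1.75, -1.01]. EDEM1, which takes misfolded glycoproteins to degradation, had -1.20 [-1.35, -1.06], and KDELR3, a receptor that returns ER proteins from the Golgi, had -1.02 [-1.53, -0.54]. Without cluster 3, all 5 were still below 0, and CEBPB alone was past 2-fold lower, at -1.21, while EDEM1 was at -0.95, TRIB3 at -0.80, KDELR3 at -0.66 and ATF3 at -0.63. The interval of TRIB3 then held 0.

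The 3 higher genes in acinar-like nuclei were CREB3L3, UGGT2 and PDIA2. CREB3L3, an ER-bound transcription factor best known from liver, had 27 UMIs in WT and 140 in PIGinH11, a log2 ratio of 3.34 [2.73, 3.99]. UGGT2, a glycoprotein folding sensor, had a log2 ratio of 1.73 [1.53, 1.93]. PDIA2, the pancreatic protein disulfide isomerase, was at 552 CPM in WT and 1208 CPM in PIGinH11, a log2 ratio of 1.13 [1.10, 1.16]. TRAF2, an adaptor of IRE1, and CRELD2, a folding factor, followed at 0.99 and 0.88.

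The lists differed little in their medians in acinar-like nuclei. Of 24 sensors and transducers tested, 3 were past 2-fold lower and 1 higher, with a median log2 ratio of -0.12. ATF4, the factor made when PERK is active, was at 160 CPM in WT and 126 CPM in PIGinH11, and its target DDIT3 at 1.59 and 1.10 CPM. Of 31 chaperones and folding enzymes, 0 were past 2-fold lower and 2 higher, with a median of -0.09. HSPA5, the main chaperone of the ER lumen, had a log2 ratio of -0.45 [-0.58, -0.32].

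Of 30 other translocon and signal recognition genes, 0 were past 2-fold in either direction, with a median log2 ratio of -0.26. The medians were -0.31 for 11 genes of the oligosaccharyltransferase, -0.27 for 23 of the coat between ER and Golgi and -0.17 for 24 of ER-associated degradation. The medians of all 6 ER lists thus lay above that of the 9 genes, -0.56. Since the 9 were chosen with earlier results of these data known, this order is no independent result about them.

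In ductal-like nuclei 4 of 134 listed genes were past 2-fold lower, against 3.15% of all genes, and 5 higher, against 12.2%, with a median of -0.11. With median-of-ratios scaling, for which no shares over all genes were computed, these counts were 6 and 2. PPIB, a folding enzyme, had the lowest log2 ratio, -1.32 [-1.85, -0.83], followed by TMEM258 at -1.26, SRP19 at -1.12 and SEC61B at -1.12. UGGT2 had the highest, 4.00 [3.30, 4.79], with 19 UMIs in WT and 118 in PIGinH11. TRAF2 and PDIA2 were at 1.04 and 1.02, and ATF3 and PDIA5, named after their values were seen, at 1.10 and 1.31. UGGT2 and PDIA2 were thus past 2-fold higher in both exocrine classes, whereas ATF3 was lower in acinar-like and higher in ductal-like nuclei, a difference that was not tested.

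In beta-like nuclei 0 of 68 listed genes were past 2-fold lower, against 4.07% of all genes, and 4 higher, against 4.43%, with a median of 0.04. The 4 were KDELR2 at 1.41 [0.52, 2.33], RPN2 at 1.29 [0.64, 1.95], PDIA3 at 1.04 [0.23, 1.86] and DNAJC10 at 1.02 [0.17, 1.89]. ERO1B, the oxidase that forms disulfide bonds in insulin-producing cells, had the lowest log2 ratio. It was at 1206 CPM in WT and 646 CPM in PIGinH11, a log2 ratio of -0.90 [-1.11, -0.69]. SSR3 followed SRP54 and SEC22B among the low values, at -0.79 [-1.42, -0.19]. The digestive enzymes summed to 29786 CPM in WT and 5057 CPM in PIGinH11 beta-like nuclei, and their part in these ratios was not tested.

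**Figure D4:**
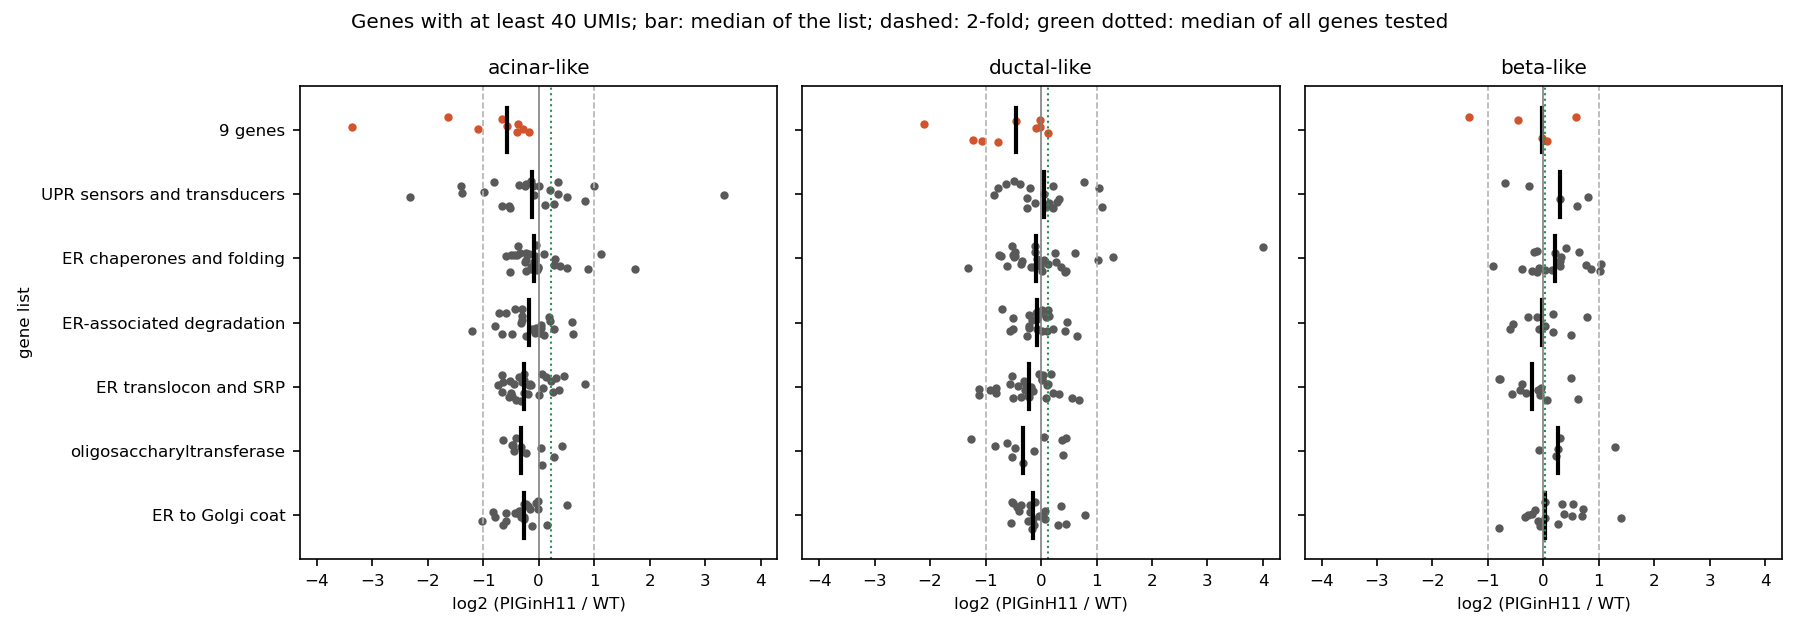
Log2 ratios (x axis) of the 9 genes and of the genes of 6 ER lists (y axis) in nuclei of the acinar-like, ductal-like and beta-like classes, with 1 point per gene of at least 40 UMIs, a bar at the median of each list, dashed lines at 2-fold and a green dotted line at the median of all genes tested. In acinar-like nuclei the median of the 9 genes is -0.56, and those of the lists lie from -0.31 to -0.09.

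The members differ widely in length, and the shortest had the lowest ratios in acinar-like and ductal-like nuclei. The 4 shortest, SSR4, ATF5, XBP1 and SSR2 (4.09 to 11.2 kb), had the 4 lowest log2 ratios in acinar-like and in ductal-like nuclei. ATF6, the longest (215 kb), had -0.36 and -0.03. A comparison with all genes of like length was void in these classes, since 69.0% of the genes tested in acinar-like and 77.2% of those in ductal-like nuclei had a known span. In endothelial-like nuclei, where 85.7% had one, the median log2 ratio was -0.01 over the shortest 1594 genes and 0.15 over the longest 1593, and 7.21% and 1.00% of them were past 2-fold lower. The order of the members was not the same there. SSR4 (-3.22) and SSR2 (-0.95) were lowest of those tested, but XBP1, at 0.05, lay above the longer TMBIM6 (-0.29), SEC61A1 (-0.32) and SEC62 (-0.19). The part of gene length in the differences of the 9 genes was not tested.

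**Figure D5:**
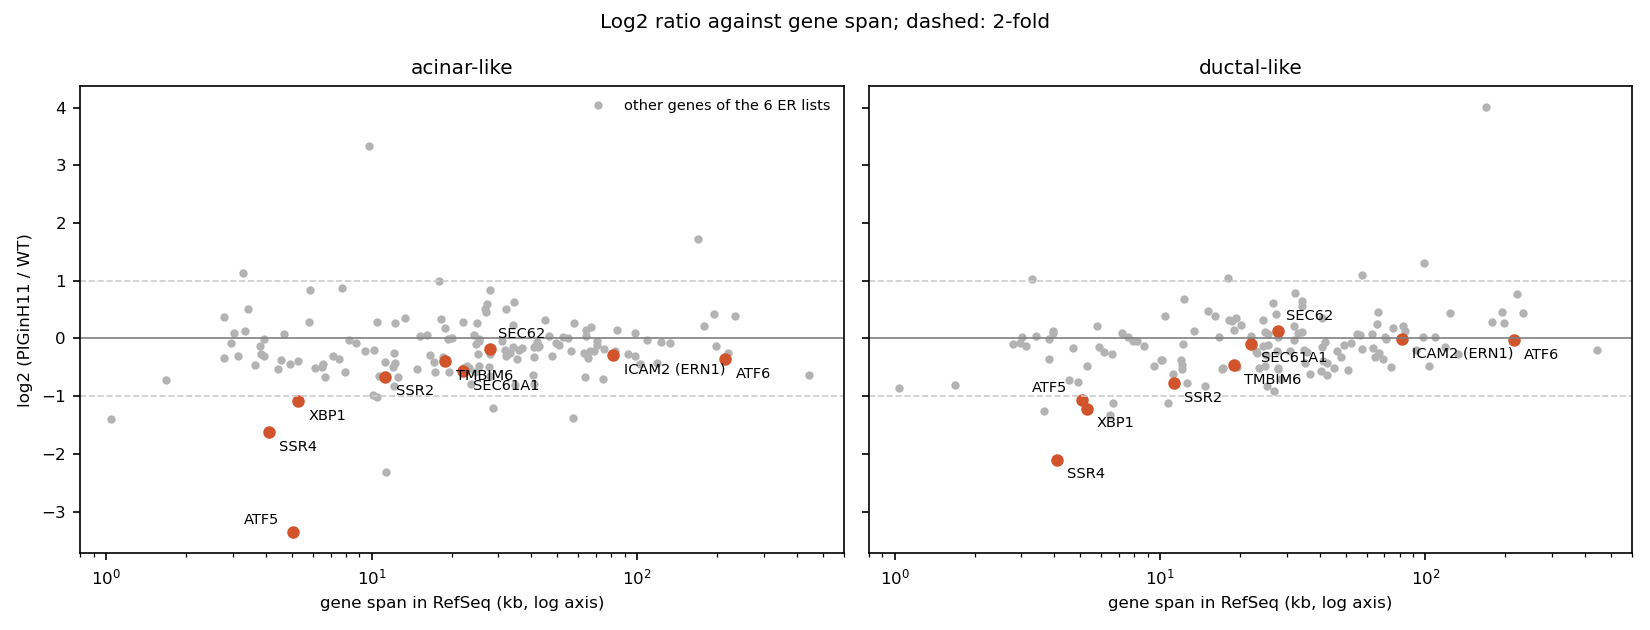
Log2 ratio (y axis) against gene span in the RefSeq annotation (kb, log axis) for the 9 genes and, in grey, for the other genes of the 6 ER lists. SSR4, ATF5, XBP1 and SSR2, at 4.09 to 11.2 kb, have the 4 lowest acinar ratios of the set, and ATF6, at 215 kb, has -0.36.

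Genes whose levels were most like those of each member were sought over 22 profiles, 11 classes in 2 libraries, on log2(CPM + 5) among 12970 genes. The profiles share libraries, depth and free RNA, so r is a description. XBP1 was most like TTC37 (r = 0.84), PAIP2B (0.79) and SERP1 (0.78), the last a stabiliser of ER membrane proteins. ATF6 was most like the lipase gene PNLIPRP2 (0.92), RNF165 (0.90) and GIGYF2 (0.89). ATF5 was most like the mitochondrial gene ND4 (0.90), CHAC1 (0.82) and the ribosomal protein gene RPL10 (0.81).

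Genes like ICAM2 (ERN1) included ZNF251 (r = 0.78) and CBX2 (0.77). TMBIM6 was most like genes of vessels and adhesion, ACVRL1 (0.82), ITGA9 (0.82) and CALCRL (0.81). SEC61A1 was most like EDEM3 (0.84), CATSPERB (0.80) and AGMAT (0.78), and SEC62 had weaker partners, MFSD4A (0.72), WSCD1 (0.71) and CORO1C (0.71). SSR2 was most like CST3 (0.81), MMADHC (0.80) and SSTR1 (0.78). SSR4 was most like KLK1 (0.95), MT1X (0.86) and the trypsinogen gene PRSS2 (0.84). Among the 9 genes themselves, ATF5 and SSR4 were most alike (r = 0.73), and SEC62 and SSR4 least (r = -0.08).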

How the data were processed

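Single-nucleus libraries of the pancreas of 1 WT and 1 PIGinH11 pig were used. Reads were aligned by the authors to Sscrofa11.1 with Cell Ranger (v3.1.0 in their methods, v5.0.0 in the file headers), and raw UMI counts per gene and barcode were deposited. Of 31908 genes, 15410 came without a symbol, and 841 could be named from the gene table.

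Nuclei were kept at 270 to 3700 genes, under 13000 UMIs and under 10% mitochondrial UMIs. The methods print 1300, below the median depth of the WT library. Scrublet (scanpy v1.11.5) replaced DoubletFinder, and its highest scores, 0.8% for each 1000 barcodes, were removed. Counts were scaled to 10000 per nucleus and 2000 variable genes were taken per library, leaving out 227 genes (the members, the 6 ER lists, ribosomal protein and mitochondrial genes). Harmony, written in numpy (50 clusters, theta 2, sigma 0.1, lambda 1), was applied to 30 principal components before Louvain clustering (20 neighbours, resolution 1, igraph v0.11.9). Clusters were named by at least 3 markers found in at least 5% of nuclei and by their 10 leading genes. Intervals are exact (conditional binomial for ratios, Poisson for levels, Clopper–Pearson for shares).

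The members and lists were chosen with earlier results of these data known. Besides the members, the rule names the 5 highest and 5 lowest ER genes in 3 classes (at least 100 UMIs, or 40 in beta-like nuclei) and the 3 genes most like each member, of which 1 is not reported here. EIF2AK3, SSR1, SSR3, SEC61B, SEC61G, SEC63, ATF4, DDIT3, HSPA5 and HSP70.2 were added for their role after their values were seen. Class sums with 200 changed genes in each of 3 classes were simulated as Poisson counts, the model that the intervals assume. The ratios and intervals were computed from them, and 95.3% to 96.5% of intervals held the true ratio. Clustering and variation between nuclei were not part of this simulation, so it checks the computation only. No genome sequence was used, so a planned promoter motif search was not run. The alternatives are given in the closing section.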

Additional observations from a re-analysis of the deposited data

Results flagged for a closer look

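Both sensor genes were higher in PIGinH11 than in WT stellate-like nuclei and lower in acinar-like nuclei, with intervals apart from 0 on opposite sides. The log2 ratio of ATF6 was 0.69 [0.37, 1.02] in stellate-like and -0.36 [-0.40, -0.33] in acinar-like nuclei. That of ICAM2 (ERN1) was 0.72 [0.19, 1.26] in stellate-like and -0.28 [-0.34, -0.23] in acinar-like nuclei. The difference between the classes was not tested, since each group was 1 library. In the WT library both genes lay below the share of the acinar-like level that the digestive enzymes reached in stellate-like nuclei (47.4%).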

How the results depend on the processing

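No paired analysis was possible because each group was 1 library, which leaves fewer than 2 pairs, and no replicate could be left out. In acinar-like nuclei, 3 of the 9 genes were past 2-fold lower under every alternative but a UMI limit of 1300, which gave 4. There, 8 of the 9 genes kept their sign under 14 of 14 alternatives (including that of gene length, which was void for acinar-like as well as ductal-like nuclei), and ICAM2 (ERN1) was at 0.18 under the UMI limit of 1300. Subtracting free RNA leaves acinar-like values unchanged by construction, since they are its reference. A minimum of 1 UMI drops no member in this class. Neither alternative could therefore change these acinar results. ATF5 ranged from -3.58 to -2.53, XBP1 from -1.31 to -1.07 and SSR4 from -2.96 to -1.61.

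The counts of listed ER genes moved more. Shares over all genes were not computed under the alternatives, so a moved count is no result about these genes. In acinar-like nuclei the 5 lower genes became 10 with median-of-ratios scaling, 3 with the mean over nuclei, 2 with thinned nuclei and 1 without cluster 3, the alternative added later, and the 3 higher became 6 at the UMI limit of 1300 and 5 with the mean or with thinning. In ductal-like nuclei the 4 lower became 1 without doublet removal, 8 with the mean and 0 with free RNA subtracted. The 5 higher became 2 at the UMI limit of 1300 and with median-of-ratios scaling, 3 at a minimum of 500 genes, with the mean, with thinning and in the void comparison of gene length, 9 with a minimum of 1 UMI and 28 with free RNA subtracted. Of the 9 genes, 1 was then lower and 2 higher in ductal-like nuclei, against 3 and 0, with 4 left to test. The other 5 were at 0 in WT and above 0 in PIGinH11 after the subtraction, so they had no ratio. Their WT levels lay below the share subtracted, so this alternative decides nothing about them.

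In beta-like nuclei the 1 lower gene of the set, SSR2, became 0 with the mean and with free RNA subtracted, and 3 with a minimum of 1 UMI. With free RNA subtracted 2 were higher. The count was also 0 at the UMI limit of 1300 and with thinning, but SSR2 had under 40 UMIs there and was not tested. The 0 lower listed genes became 1 with the mean and 4 with a minimum of 1 UMI. The 4 higher became 0 at the UMI limit of 1300 and with thinning, which both leave fewer UMIs to test. They became 2 with median-of-ratios scaling and with enzyme, ribosomal protein and mitochondrial genes out of the denominator, 10 with a minimum of 1 UMI and 33 with free RNA subtracted. The number of members highest in acinar-like nuclei, 5 in each library, became 1 in WT at the UMI limit of 1300, and in PIGinH11 3 at that limit, with median-of-ratios scaling and with the mean, and 1 with thinning. Apart from what each alternative does by construction, the causes were not tested. Depth limits the beta-like nuclei, where 4 of the 9 genes had under 40 UMIs, and the smaller classes.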
